A study of Homo sapiens with 12 samples.

Results

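The 48 genes described here are the 13 protein-coding genes of the mitochondrial DNA and 35 nuclear genes for subunits of respiratory complex I. They were taken by symbol from a list of names, without the use of any measured value, out of 58381 genes in the tables. All 48 passed the filter on low counts, which kept 15944 genes for testing.

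RNA was measured in HMC-1, a human mast cell line that was isolated from a patient with mast cell leukaemia, in 12 libraries of 4 groups with 3 libraries each. HMC-1.1 cells carry V560G-KIT, and HMC-1.2 cells carry both V560G-KIT and D816V-KIT. HMC-1.3 clone 1 and HMC-1.3 clone 2 were derived from HMC-1.2 by CRISPR/Cas9 editing that returned the V560G position to wild type, so that they carry D816V-KIT alone, and each of them is 1 clone. The 3 libraries of a group came from wells plated in parallel, so that p-values measure only the spread between such cultures, and what differs between single clones cannot be told apart from what the editing changed.

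Complex I takes electrons from NADH, passes them to ubiquinone and pumps protons out of the mitochondrial matrix. Its membrane arm is built around 7 subunits made inside the mitochondrion (MT-ND1 to MT-ND6 with MT-ND4L), while its matrix arm, which holds the flavin and the iron-sulphur clusters, and a large set of accessory subunits are encoded in the nucleus. The mitochondrial genome is transcribed from both strands into long precursors that are cut into messengers, so that the amount of each messenger depends on copy number, transcription, processing and decay. MT-ND6 alone among the coding genes is read from the light strand. In bulk RNA, fewer copies of a genome and less RNA per copy cannot be told apart.

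A pair of overlaps between neighbouring mitochondrial genes is shown here, because the bases of each stretch belong to both of its genes. Both stretches are shorter than the mean length of the sequenced fragments (219 to 247 bases per library). A fragment of mean length that touches a stretch therefore reaches beyond it. How the counts were split between such genes was not tested. MT-ATP8 (chrM:8366-8572, plus strand) shares its last 46 bases, 22.2% of its length, with the start of MT-ATP6 (chrM:8527-9207), and MT-ND4L (chrM:10470-10766) shares 7 bases, 2.36% of its length, with MT-ND4 (chrM:10760-12137). In both sequences, read from the hg38 assembly on the plus strand, the capitals mark the first 3 bases, where the second gene starts, and the last 3, where the first gene ends.
MT-ATP8 with MT-ATP6, chrM:8527-8572: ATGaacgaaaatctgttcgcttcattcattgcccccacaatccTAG
MT-ND4L with MT-ND4, chrM:10760-10766: ATGcTAA

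Library totals ranged from 29225900 to 43181402 counts. The labels mark HMC-1.2 replicate 1, HMC-1.3 clone 1 replicate 3 and HMC-1.3 clone 2 replicate 1 as resent, and no library of HMC-1.1. What this mark stands for is not given in the sources used here. Comparisons with HMC-1.1 therefore have a resent library in the other group only. The cells had high FPKM (fragments scaled to the effective gene length and to the library total) of the mast cell genes KIT (346 to 469), HDC (814 to 1037) and GATA2 (212 to 247), whereas the IgE receptor genes MS4A2 and FCER1A were near 0, with at most 0.45 and 1.27 FPKM. CPA3 (3.04 to 11.3) and HPGDS (4.12 to 12.6) were lower. The tryptase gene TPSAB1 had a mean of 592 FPKM in HMC-1.2 beside 29.4 to 44.2 in the other groups, and TPSB2 of 96.6 beside 35 to 40.7. FCER1G also differed, with a mean of 94.4 FPKM in HMC-1.1 as in clone 1 of HMC-1.3, of 1.59 in HMC-1.2 and of 10.3 in the second clone. Markers of other cell types reached at most 3.26 FPKM (HBB), and the other 6 of them at most 0.62 FPKM. The mean length of the sequenced fragments, which follows from the ratio of counts to FPKM, was 231, 219 and 227 bases in HMC-1.2, 242, 247 and 234 in HMC-1.1, 237, 225 and 226 in HMC-1.3 clone 1 and 239, 241 and 242 in HMC-1.3 clone 2. All libraries of HMC-1.1 and of clone 2 therefore had longer fragments than all HMC-1.2 libraries, and for short genes the values with an allowance for this are given beside the counts.

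Per length, the 12 heavy-strand mitochondrial genes had higher mean levels than any nuclear complex I gene. Over the 12 libraries the mean FPKM was 6848 ± 801 (SD, n = 12) for MT-ATP8, 4598 ± 514 for MT-CO3, 4545 ± 496 for MT-CO2 and 4202 ± 592 for MT-CO1. The last 3 are the core subunits of cytochrome c oxidase. This SD also holds the differences between groups, and the order of these 3 genes was not the same in all groups. In HMC-1.2 MT-CO2, MT-CO3 and MT-CO1 had 4622 ± 262, 4127 ± 208 and 3491 ± 138 FPKM (SD, n = 3). In clone 1 they had 4459 ± 463, 4733 ± 383 and 4843 ± 257. The level of MT-ATP8, a small subunit of ATP synthase, rests on an effective length of only 16 to 29.4 bases. MT-ATP6 (2331 ± 275 FPKM), MT-ND3 (2266 ± 305), MT-ND4L (2107 ± 232) and MT-ND4 (1747 ± 209) came next, followed by MT-ND1 (1101 ± 139), MT-ND2 (1021 ± 149), MT-CYB (999 ± 130) and MT-ND5 (542 ± 44.5).
The light-strand gene MT-ND6 had a mean of only 115 ± 16.5 FPKM and was the one mitochondrial gene within the range of the nuclear subunits. It lies on the strand opposite to the other 12, and since the strand setting of the counting is not given in the sources used here, its level and its differences could hold reads from the other strand. The nuclear subunits ran from 31.8 ± 1.92 FPKM for NDUFV3 to 300 ± 20.1 for NDUFB8 and 320 ± 11.2 for NDUFB9.

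The summed share of the 13 mitochondrial genes overlapped between most groups, whereas the ribosomal RNA of the same genome was higher in every group than in HMC-1.2. The 13 genes took 1.47%, 1.67% and 1.69% of all counts in the 3 HMC-1.2 libraries (mean 1.61% ± 0.119, SD, n = 3), 1.44%, 1.81% and 1.71% in HMC-1.1 (1.65% ± 0.191), 1.79%, 1.97% and 1.72% in clone 1 (1.82% ± 0.128) and 1.99%, 1.6% and 1.72% in clone 2 (1.77% ± 0.201). Clone 1 lay above HMC-1.2 in all 3 libraries, by little, and the other groups overlapped with HMC-1.2 and with each other.
The 35 nuclear genes together took 0.254%, 0.254% and 0.247% of the counts in HMC-1.2, 0.26%, 0.248% and 0.265% in HMC-1.1, 0.256%, 0.263% and 0.25% in clone 1 and 0.27%, 0.269% and 0.257% in clone 2. Clone 2 was the one group whose libraries all lay above the HMC-1.2 libraries. The ratio of the mitochondrial to the nuclear share ran from 5.54 to 7.48, and its lowest values, 5.54 and 5.81, came from HMC-1.1 and HMC-1.2. No test was made of these sums.
The 16S ribosomal RNA gene MT-RNR2, which is read from the heavy strand upstream of the coding genes, took 0.261%, 0.268% and 0.262% of the counts in HMC-1.2, 0.349%, 0.411% and 0.404% in HMC-1.1, 0.516%, 0.549% and 0.482% in clone 1 and 0.37%, 0.306% and 0.335% in clone 2. Neither clone nor HMC-1.1 overlapped with HMC-1.2. Against HMC-1.2 the log2 fold change of MT-RNR2 was 0.92 ± 0.07 (SE) in clone 1, 0.53 ± 0.07 in HMC-1.1 and 0.34 ± 0.07 in clone 2, and that of the 12S gene MT-RNR1 was, in the same order, 0.93 ± 0.06, 0.56 ± 0.06 and 0.58 ± 0.06, with adjusted p of at most 0.00037 by edgeR's quasi-likelihood test. The libraries were made by oligo-dT capture, and how much of the ribosomal RNA came through the capture was not measured.

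**Figure D1:**
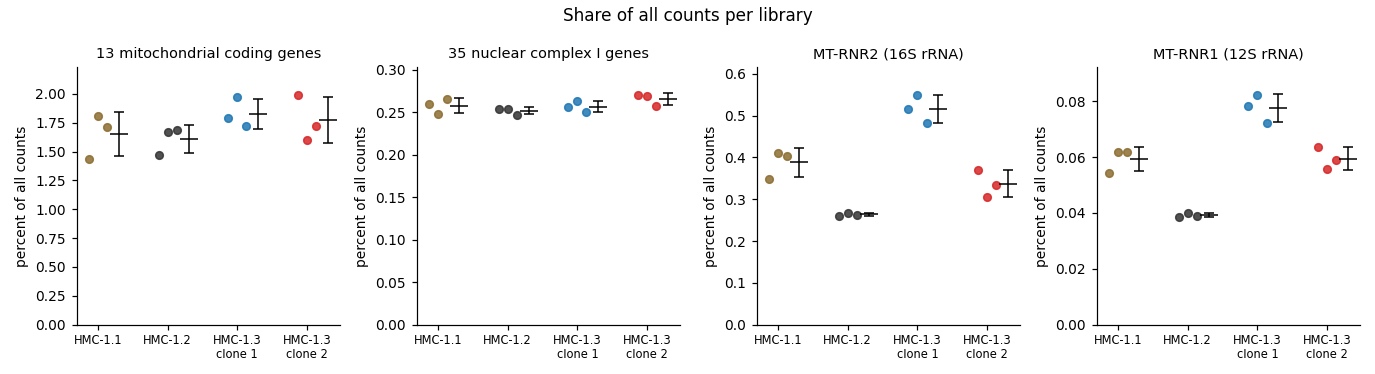
Percent of all counts (y axes, each from 0) per library in the 4 groups, with 1 point per library and the mean with its SD at the right. The summed share of the 13 mitochondrial coding genes lay between 1.44% and 1.99% and that of the 35 nuclear genes between 0.247% and 0.27%, while MT-RNR2 and MT-RNR1 were lowest in the 3 HMC-1.2 libraries.

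Replicates varied more in the mitochondrial genes than in the nuclear ones. The biological coefficient of variation, the spread between libraries of a group beyond counting error, had a median of 7.62% over the 13 mitochondrial genes (6.6% to 10.5%) and of 4.06% over the 35 nuclear genes (2.39% to 7.24%), beside 4.86% over all genes tested and 3.45% over the 8062 genes with at least 20 CPM (counts scaled to the normalised library total). A given fold change was therefore less easily called in a mitochondrial gene. In clone 2 MT-CO2, MT-CO3, MT-CYB and MT-ATP6 were each highest in replicate 1, the library with the largest mitochondrial share.

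The comparison of HMC-1.3 clone 1 with HMC-1.2 asks what differs where V560G is absent beside D816V. Of the 13 mitochondrial genes, 3 were higher and 2 lower by the quasi-likelihood test of edgeR (p adjusted by Benjamini-Hochberg), and of the 35 nuclear genes 6 were higher and 12 lower. Over all genes tested, 59.4% passed, beside 38.5% of the mitochondrial and 51.4% of the nuclear members. The mitochondrial share depended on the filter. Without a filter on low counts 11 of the 13 mitochondrial genes passed (84.6%), where 58.5% of the same 15944 genes did, and 16 of the 35 nuclear genes (45.7%). The median log2 fold change was -0.06 for both groups of members and 0.01 for all genes, and the median size of the change, 0.17 in the mitochondrial and 0.10 in the nuclear genes, was smaller than the 0.29 of all genes. The libraries did not overlap for 4 mitochondrial and 17 nuclear genes, beside 64.2% of all genes.

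In HMC-1.3 clone 2 against HMC-1.2, 4 mitochondrial genes were higher and 1 lower, and 10 nuclear genes were higher and 3 lower, where 48.5% of all genes passed (24.7% higher and 23.9% lower). The libraries did not overlap for 4 mitochondrial and 13 nuclear genes, beside 56% of all genes. DESeq2 called only 1 mitochondrial gene here, and edgeR without the filter called 9 (69.2%, beside 47.5% of the same genes). The median log2 fold change was 0.04 in both groups of members and the median size 0.13 and 0.06, beside 0.21 over all genes. In HMC-1.1 relative to HMC-1.2, 1 mitochondrial gene was higher and 4 lower, and 4 nuclear genes were higher and 8 lower, where 53.7% of all genes passed (27.2% higher). The libraries did not overlap for 4 mitochondrial and 16 nuclear genes, beside 59.9% of all genes. The median log2 fold change was -0.21 over the mitochondrial and -0.05 over the nuclear genes, and the median size 0.22 and 0.08, beside 0.24 over all genes. With the effective length as an offset the mitochondrial median was -0.06 and the nuclear median -0.01, and 3 mitochondrial genes (1 higher, 2 lower) and 6 nuclear genes (3 higher, 3 lower) passed, beside 45.2% of all genes. Without the filter 9 mitochondrial genes passed (69.2%, beside 52.4% of the same genes). These 3 comparisons share the HMC-1.2 libraries, so that a high or low value there enters all of them.

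Among the comparisons without HMC-1.2, clone 1 against HMC-1.1 had 2 mitochondrial genes higher and 0 lower and 3 nuclear genes higher and 5 lower, where 18.7% of all genes passed (8.86% higher and 9.84% lower). Both mitochondrial calls were lost by DESeq2 and with the effective length as an offset. Clone 2 against HMC-1.1 had 6 mitochondrial genes higher and 0 lower and 12 nuclear genes higher and 2 lower, where 36% of all genes passed (18.5% higher). On the offset for effective length 4 mitochondrial genes were higher and 0 lower and the nuclear calls were 4 higher and 3 lower, beside 26.7% of all genes. The nuclear total of 14 in counts fell to 4 without clone 2 replicate 1, 5 without HMC-1.1 replicate 2, 7 without clone 2 replicate 2 and 9 without HMC-1.1 replicate 1, and the mitochondrial total to 2 without clone 2 replicate 1 and 3 without HMC-1.1 replicate 1. The libraries of this pair did not overlap for 4 mitochondrial and 13 nuclear genes, beside 47.3% of all genes. Clone 1 against clone 2 had 1 mitochondrial gene higher and 3 lower and 3 nuclear genes higher and 14 lower, where 50.2% of all genes passed (25.5% higher and 24.7% lower). The libraries of the clones overlapped for all 13 mitochondrial genes and were separate for 18 nuclear genes, 3 higher and 15 lower, beside 56.8% of all genes (29.5% higher). Without the filter on low counts 9, 9 and 11 mitochondrial genes passed in these 3 comparisons, beside 19.7%, 35.3% and 49.3% of the same genes.

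A fold change over 1.5 together with an adjusted p under 0.05 was found in 2 of the 48 genes. These were NDUFB3 in clone 1 against HMC-1.2, where 20% of all genes passed that limit, and MT-ATP8 in HMC-1.1 relative to HMC-1.2, where 17.6% did. In the other 4 comparisons no member passed it, beside 16.5% of all genes in clone 2 against HMC-1.2, 1.01% in clone 1 against HMC-1.1, 8.19% in clone 2 against HMC-1.1 and 12.6% in clone 1 against clone 2.

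Of the complex I genes in mitochondrial DNA, MT-ND3 (chrM:10059-10404), a small core subunit of the hinge between the arms, fell the most. Its CPM was 316, 348 and 332 in HMC-1.2, 211, 234 and 248 in HMC-1.1, 255, 290 and 225 in clone 1 and 334, 272 and 285 in clone 2. All HMC-1.1 and all clone 1 libraries lay below HMC-1.2, and clone 2 overlapped through its replicate 1. The log2 fold change was -0.37 ± 0.08 in clone 1 (adjusted p = 0.00097) and -0.52 ± 0.08 in HMC-1.1 (adjusted p = 4.7e-05), and it was -0.16 ± 0.08 in clone 2 (adjusted p = 0.12). Since MT-ND3 is short, its effective length ranged from 111 to 136 bases between libraries. With the effective length as an offset in the fit, an alternative chosen after seeing the data, the values were -0.32 ± 0.08 in clone 1, -0.36 ± 0.08 in HMC-1.1 and -0.01 ± 0.08 in clone 2, and the first 2 passed the test (adjusted p = 0.0045 and 0.0028).

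The light-strand gene MT-ND6 (chrM:14149-14673, minus strand), a core subunit of the membrane arm, had CPM of 27.5, 29.1 and 32.6 in HMC-1.2, 28.6, 29.8 and 36.1 in HMC-1.1, 34, 35.5 and 39.1 in clone 1 and 37.5, 33 and 41.4 in clone 2. Both clones lay above HMC-1.2 in all libraries, and HMC-1.1 overlapped with it. It was higher by 0.28 ± 0.09 on the log2 scale in clone 1 (adjusted p = 0.015) and by 0.33 ± 0.09 in clone 2 (adjusted p = 0.0072), and its value in HMC-1.1 was 0.08 ± 0.09 (adjusted p = 0.48). The call in clone 1 was lost without HMC-1.2 replicate 1 or clone 1 replicate 3, with 0.22 as the lowest value.
The remaining complex I genes of the mitochondrial genome, which form the proton-pumping membrane arm, passed against HMC-1.2 in 1 group or none. MT-ND4 was higher in clone 1 by 0.25 ± 0.09 (adjusted p = 0.023, lost without HMC-1.2 replicate 1 or clone 1 replicate 2, with values from 0.16 to 0.31). MT-ND1, next to the quinone site, was higher in clone 2 by 0.26 ± 0.09 (adjusted p = 0.022, lost without HMC-1.2 replicate 1 or clone 2 replicate 1, with values from 0.17 to 0.32). MT-ND2 was lower in HMC-1.1 by -0.28 ± 0.10 (adjusted p = 0.024), which was lost without HMC-1.1 replicate 1 or 3 or HMC-1.2 replicate 2 or 3 (values from -0.37 to -0.22), and with the effective length as an offset (-0.25 ± 0.10, adjusted p = 0.058). MT-ND4L passed the test in clone 1 against HMC-1.1 alone (0.33 ± 0.11, adjusted p = 0.045), which 4 of the 6 left-out libraries ended. MT-ND5 passed in none of the 6 comparisons, with values from -0.08 to 0.05. Clone 2 was above HMC-1.1 in 4 of these 7 genes, where 18.5% of all genes were higher. The difference was 0.41 ± 0.10 in MT-ND2 (adjusted p = 0.004) and 0.36 in MT-ND3 (adjusted p = 0.0025), and both calls held with any 1 library left out. It was 0.32 in MT-ND1 (adjusted p = 0.0084, lost without clone 2 replicate 1) and 0.25 in MT-ND6 (adjusted p = 0.045, lost without 4 of 6 libraries, down to 0.16, and with the offset, at 0.24 ± 0.10 with adjusted p = 0.08).

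MT-CYB (chrM:14747-15887), which encodes cytochrome b, the one subunit of complex III made in the mitochondrion, was lower in clone 1 and in HMC-1.1. Its CPM was 892, 1057 and 1109 in HMC-1.2, 723, 891 and 796 in HMC-1.1, 797, 899 and 771 in clone 1 and 1100, 895 and 965 in clone 2. The HMC-1.1 libraries all lay below the HMC-1.2 libraries, clone 1 overlapped with them by 1 library, and clone 2 lay among them. MT-CYB had a log2 fold change of -0.31 ± 0.09 in clone 1 (adjusted p = 0.0056), -0.34 ± 0.09 in HMC-1.1 (adjusted p = 0.0031) and -0.05 ± 0.09 in clone 2 (adjusted p = 0.69). Clone 1 was below clone 2 by -0.26 ± 0.09 (adjusted p = 0.019), a call lost without clone 1 replicate 1 or 3 or clone 2 replicate 1, with values up to -0.18.

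Of the oxidase genes, MT-CO1 (chrM:5904-7445), which encodes the catalytic subunit of cytochrome c oxidase, was higher in all 3 groups than in HMC-1.2. Its CPM was 4501, 4756 and 4789 in HMC-1.2, 4856, 6053 and 5946 in HMC-1.1, 6157, 6646 and 5923 in clone 1 and 5978, 4883 and 5415 in clone 2. Every library of the other groups lay above every HMC-1.2 library, though HMC-1.1 replicate 1 and clone 2 replicate 2 did so by little. The log2 fold change against HMC-1.2 was 0.42 ± 0.07 in clone 1 (adjusted p = 0.00012), 0.26 ± 0.07 in HMC-1.1 (adjusted p = 0.0064) and 0.21 ± 0.07 in clone 2 (adjusted p = 0.025). The call in clone 2 was lost when HMC-1.2 replicate 1 or clone 2 replicate 1 was left out, where the value fell to as little as 0.14. Between the clones MT-CO1 was higher in clone 1 by 0.20 ± 0.07 (adjusted p = 0.031), a call that 4 of the 6 left-out libraries ended (clone 1 replicates 1 and 2, clone 2 replicates 2 and 3), with values down to 0.13. The other pair changed less or did not pass. MT-CO3 was higher in clone 2 by 0.22 ± 0.09 (adjusted p = 0.047), which was lost without any one of the HMC-1.2 libraries or clone 2 replicate 1 (lowest value 0.11), and MT-CO2 passed the test in none of the 6 comparisons, with values from -0.22 to 0.23.

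MT-ATP8 and MT-ATP6 encode the ATP synthase subunits made in the mitochondrion. MT-ATP8 had CPM of 156, 208 and 185 in HMC-1.2, 101, 115 and 143 in HMC-1.1, 139, 171 and 159 in clone 1 and 167, 131 and 129 in clone 2. All HMC-1.1 libraries lay below HMC-1.2, and both clones overlapped with it. In counts it was lower in HMC-1.1 by -0.61 ± 0.12 (adjusted p = 0.00048) and in clone 2 by -0.36 ± 0.12 (adjusted p = 0.021, lost without HMC-1.2 replicate 2 or clone 2 replicate 2 or 3, with values up to -0.26), and its value in clone 1 was -0.22 ± 0.12 (adjusted p = 0.13).
With 207 bases the gene is shorter than the mean fragment, and its effective length was 24.1, 29.4 and 25.7 bases in HMC-1.2, 18.1, 16 and 22.1 in HMC-1.1, 21.5, 24.5 and 26.9 in clone 1 and 18.6, 18.8 and 18.7 in clone 2. Per effective length the groups overlapped, with 6300, 6947 and 7157 FPKM in HMC-1.2, 5578, 7251 and 6504 in HMC-1.1, 6598, 7073 and 6073 in clone 1 and 8856, 6901 and 6937 in clone 2. With the effective length as an offset none of the 3 differences passed the test, at -0.11 ± 0.10 in HMC-1.1 (adjusted p = 0.4), 0.13 ± 0.10 in clone 2 (adjusted p = 0.33, the direction turned) and -0.09 ± 0.10 in clone 1 (adjusted p = 0.47). MT-ATP6 passed against HMC-1.2 in no group, with values of -0.13 ± 0.10 in clone 1, -0.23 ± 0.10 in HMC-1.1 and 0.04 ± 0.10 in clone 2. It was higher in clone 2 than in HMC-1.1 by 0.27 ± 0.10 (adjusted p = 0.04), which was lost without HMC-1.1 replicate 1 or 3 or clone 2 replicate 1 (values from 0.14 to 0.36) and with the offset (0.26 ± 0.10, adjusted p = 0.067).

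**Figure D2:**
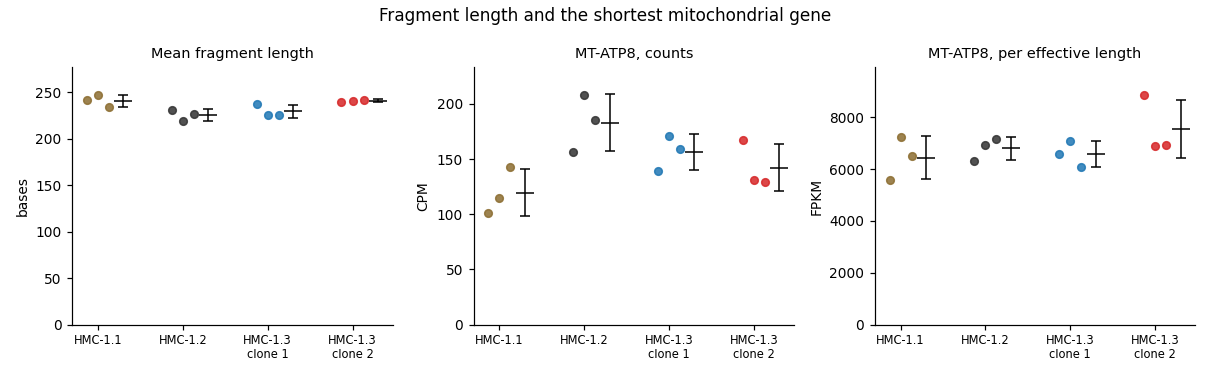
Mean fragment length in bases, MT-ATP8 in CPM and MT-ATP8 in FPKM (y axes from 0), with 1 point per library and the mean with its SD for each group. The HMC-1.1 and clone 2 libraries had longer fragments than HMC-1.2, and MT-ATP8, lower in HMC-1.1 than in HMC-1.2 in CPM, overlapped between these groups in FPKM.

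**Figure D3:**
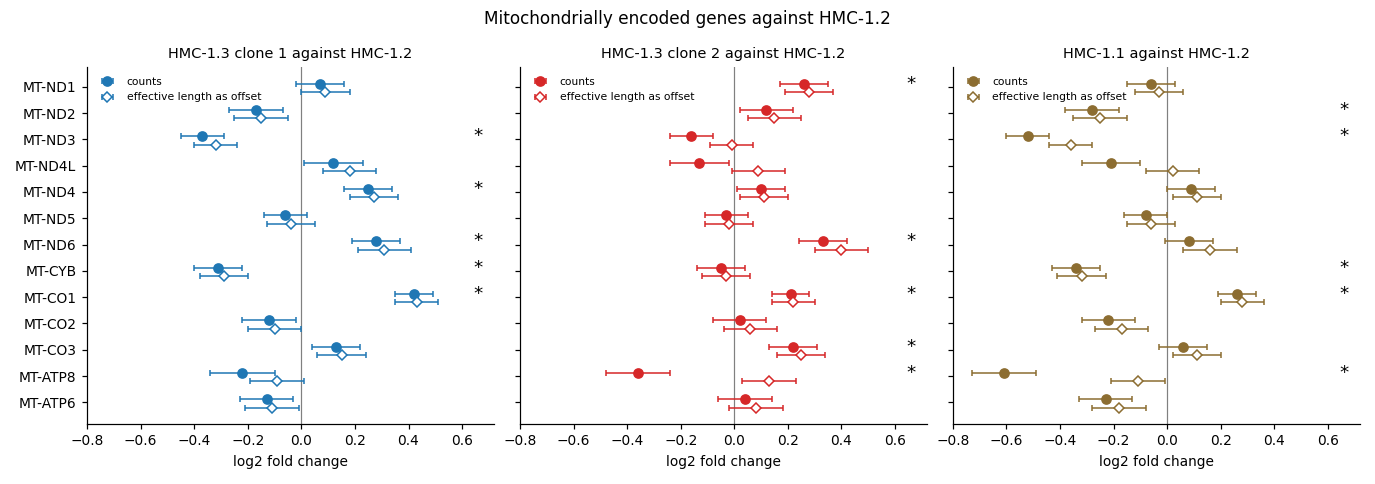
Log2 fold change against HMC-1.2 (x axis) with its SE for the 13 mitochondrial genes in HMC-1.3 clone 1, HMC-1.3 clone 2 and HMC-1.1, in counts (filled circles) and with the effective length as an offset (open diamonds), with an asterisk where the counts passed the test. MT-CO1 lay to the right in all 3 panels, and the offset moved MT-ATP8 the most.

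The make-up of the mitochondrial messages separated some groups whose sums overlapped, such as HMC-1.1 and HMC-1.2, but hardly HMC-1.1 and clone 1. The sums of clone 1 and HMC-1.2 did not overlap. MT-CO1 made up 29.7%, 27.9% and 28.2% of the counts of the 13 genes in HMC-1.2, 33.8%, 33.8% and 34.9% in HMC-1.1, 35%, 34.3% and 35.3% in clone 1 and 29.7%, 30.4% and 31.5% in clone 2. The HMC-1.1 and clone 1 libraries lay above all HMC-1.2 and clone 2 libraries. MT-CYB made up 5.89%, 6.2% and 6.53% in HMC-1.2, 5.03%, 4.97% and 4.67% in HMC-1.1, 4.54%, 4.64% and 4.6% in clone 1 and 5.46%, 5.58% and 5.61% in clone 2, so that every other group lay below HMC-1.2.
The counts of MT-CYB per 100 counts of MT-CO1 were 19.8, 22.2 and 23.2 in HMC-1.2, 18.4, 18.3 and 17.8 in clone 2, 14.9, 14.7 and 13.4 in HMC-1.1 and 12.9, 13.5 and 13 in clone 1. HMC-1.2 stood highest and clone 2 between it and the other groups, with no overlap between these 3 levels, while HMC-1.1 and clone 1 overlapped. MT-ND3 went from 7.02, 7.31 and 6.92 per 100 counts of MT-CO1 in HMC-1.2 through 5.59, 5.56 and 5.26 in clone 2 to 4.35, 3.87 and 4.16 in HMC-1.1 and 4.14, 4.36 and 3.8 in clone 1. Its order of groups was the same, with the last 2 again overlapping.

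Scaled to the sum of the 13 genes, which was an alternative chosen after seeing the data, 5 genes differed by edgeR's quasi-likelihood test between clone 1 and HMC-1.2. These were MT-CO1 (0.29 ± 0.10, adjusted p = 0.019), MT-ND3 (-0.50 ± 0.13, adjusted p = 0.00064), MT-CYB (-0.43 ± 0.12, adjusted p = 0.0017), MT-ND2 (-0.29 ± 0.12, adjusted p = 0.044) and MT-ATP8 (-0.35 ± 0.13, adjusted p = 0.027), where 38.2% of all genes passed on this scale (24.6% lower), and the number fell to 2 without HMC-1.2 replicate 2 or 3 or clone 1 replicate 1 and to 3 without clone 1 replicate 2 or 3. With the effective length as an offset MT-ATP8 was no longer among them. In HMC-1.1 relative to HMC-1.2, 3 genes passed (27% of all genes), namely MT-ND3 (-0.52 ± 0.13, adjusted p = 0.00044), MT-CYB (-0.34 ± 0.12, adjusted p = 0.021) and MT-ATP8 (-0.61 ± 0.13, adjusted p = 4.1e-05), of which the last was lost with the offset. Without HMC-1.1 replicate 1, 5 genes passed. In clone 2 against HMC-1.2, MT-ATP8 alone passed (-0.48 ± 0.13, adjusted p = 0.0021, where 26% of all genes did), and it did not with the offset. In the 3 comparisons without HMC-1.2, 0 mitochondrial genes passed on this scale, also with any 1 library left out, where 2.05%, 14.3% and 21.1% of all genes did in clone 1 against HMC-1.1, clone 2 against HMC-1.1 and clone 1 against clone 2. The test estimates the spread with the help of all genes, and on this scale nuclear genes also carry the variation of the mitochondrial sum. The 0 therefore does not show equal shares. Between the clones, 3 shares were higher and 7 lower in clone 1 without overlap.

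Since shares of a sum are tied to each other, a higher share of MT-CO1 lowers the rest. In each of the 3 comparisons with HMC-1.2 the libraries did not overlap for 9 of the 13 genes, with 2 shares higher and 7 lower, beside 52.4% of all genes on this scale for clone 1, 35.7% for HMC-1.1 and 37.3% for clone 2. The clones were as separate from each other, with 10 of 13 shares not overlapping (3 higher and 7 lower in clone 1, beside 31.9% of all genes), as was clone 2 from HMC-1.1 with 9 (6 higher and 3 lower, beside 24.3%), while clone 1 and HMC-1.1 were separate in 2 (both lower in clone 1, beside 18%). Division by the mitochondrial sum takes from the 13 genes the variation they share and adds it to the other genes. The percentages over all genes on this scale are therefore not a like measure for the members. In counts they were 64.2% for clone 1, 59.9% for HMC-1.1 and 56% for clone 2 against HMC-1.2, and 56.8% between the clones. They were 47.3% for clone 2 and 33.3% for clone 1 against HMC-1.1. Copies of mitochondrial genes in the nuclear genome could take up some of the reads, and 3 of 404 such copies in the table had over 1000 counts over all libraries. MTATP6P1 had between 8.35% and 11.3% of the counts of MT-ATP6, MTND2P28 between 2.6% and 3.26% of those of MT-ND2 and MTCO1P12 between 0.267% and 0.36% of those of MT-CO1. When these counts were added to their parent genes, all 109 calls of the members over the 6 comparisons were kept.

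Among the 35 nuclear genes, the core subunits, which carry the electron path, were level or higher. NDUFV1 (chromosome 11, 67605653 to 67612554), which binds NADH and the flavin, had CPM of 143, 142 and 140 in HMC-1.2, 191, 186 and 187 in HMC-1.1, 188, 197 and 188 in clone 1 and 176, 179 and 171 in clone 2. All 9 libraries of the other groups stood well above HMC-1.2. The log2 fold change was 0.43 ± 0.03 in clone 1 (adjusted p = 2e-09), 0.31 ± 0.03 in clone 2 (adjusted p = 1.9e-07) and 0.41 ± 0.03 in HMC-1.1 (adjusted p = 4.9e-09), and clone 1 was above clone 2 by 0.12 ± 0.03 (adjusted p = 0.0026). Each of these calls held with any 1 library left out and with the effective length as an offset (0.46, 0.34 and 0.44 against HMC-1.2). The 20 nearest genes tested had medians of 0.10, 0.00 and 0.05.
Of the other 4 core genes, NDUFS7, which carries the last iron-sulphur cluster, was higher in clone 1 by 0.17 ± 0.03 (adjusted p = 0.00036) and in clone 2 by 0.13 ± 0.03 (adjusted p = 0.0055), with 0.02 ± 0.03 in HMC-1.1 (adjusted p = 0.74). NDUFS1, the largest subunit of the complex, was higher by 0.11 ± 0.04 in either clone (adjusted p = 0.012 and 0.015) and by 0.16 ± 0.04 in HMC-1.1 (adjusted p = 0.0011), and the calls in the clones were lost without HMC-1.2 replicate 2 or 3 and, in clone 1, without its replicate 1 (lowest value 0.08). NDUFS8 was higher in clone 1 alone by 0.13 ± 0.04 (adjusted p = 0.017), which was lost without HMC-1.2 replicate 1 or 3 or clone 1 replicate 2 (lowest value 0.07), and NDUFS3, which overlaps on its strand with PTPMT1 (37% of the CPM of NDUFS3), passed against HMC-1.2 in no group. Thus 4 of the 5 core genes were higher in clone 1, 2 in HMC-1.1 and 3 in clone 2, and 0 were lower, where 30.1%, 27.2% and 24.7% of all genes were higher. With the offset NDUFS1 passed neither in clone 1 (0.10 ± 0.04, adjusted p = 0.067) nor in HMC-1.1 (0.11 ± 0.04, adjusted p = 0.053). That left 3 core genes higher in clone 1 and 1 in HMC-1.1, beside 52.2% and 45.2% of all genes in either direction.

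Of the 9 accessory genes of the matrix arm, 3 were lower in clone 1, 3 higher and 1 lower in clone 2, and 1 lower in HMC-1.1. These numbers lie near the shares over all genes (29.3% lower in clone 1, 24.7% higher and 23.9% lower in clone 2, 26.5% lower in HMC-1.1). With the effective length as an offset 1, 2 and 0 of them remained, beside 52.2%, 40.5% and 45.2% of all genes in either direction. NDUFA2 had CPM of 30.6, 29.9 and 26.9 in HMC-1.2, 30.3, 24.2 and 30 in HMC-1.1, 21.6, 25.3 and 20.9 in clone 1 and 32, 30.7 and 27.1 in clone 2. Clone 1 lay below the HMC-1.2 and clone 2 libraries, by -0.36 ± 0.09 (adjusted p = 0.0023) and -0.40 ± 0.09 (adjusted p = 0.0012), and the values in clone 2 (0.04 ± 0.09) and HMC-1.1 (-0.05 ± 0.09) against HMC-1.2 did not pass. NDUFA7 went the other way, with CPM of 34.5, 35.3 and 34.4 in HMC-1.2, 31.5, 30.1 and 32.1 in HMC-1.1, 34.2, 37.1 and 34.5 in clone 1 and 28, 29.2 and 27.5 in clone 2. Clone 2 had the lowest libraries and did not overlap with any other group, and clone 1 overlapped with HMC-1.2. Against HMC-1.2 the log2 fold change was -0.30 ± 0.05 in clone 2 (adjusted p = 3.4e-05), -0.15 ± 0.05 in HMC-1.1 (adjusted p = 0.0091) and 0.02 ± 0.04 in clone 1 (adjusted p = 0.69). The value in HMC-1.1 lost its call without HMC-1.1 replicate 2 (lowest size 0.12, on the lower side) and with the effective length as an offset (-0.09 ± 0.05, adjusted p = 0.16). NDUFA9, a nucleotide-binding subunit near the quinone site, was higher in clone 2 by 0.15 ± 0.05 (adjusted p = 0.0097), a call lost without clone 2 replicate 2 and with the offset (0.10 ± 0.05, adjusted p = 0.16).

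Of the 9 accessory genes of the proximal membrane arm, 2 were higher and 4 lower in clone 1, 3 higher and 1 lower in clone 2, and 2 higher and 1 lower in HMC-1.1. Over all genes 30.1% were higher and 29.3% lower in clone 1, 24.7% and 23.9% in clone 2, and 27.2% and 26.5% in HMC-1.1. NDUFC2 (chromosome 11, 78068297 to 78079862) was higher in every group than in HMC-1.2. Its CPM was 95.2, 93.3 and 88.3 in HMC-1.2, 115, 111 and 115 in HMC-1.1, 117, 119 and 113 in clone 1 and 131, 126 and 117 in clone 2. No library of these groups reached down to HMC-1.2. NDUFC2 had a log2 fold change of 0.33 ± 0.04 in clone 1 (adjusted p = 3.7e-06), 0.43 ± 0.04 in clone 2 (adjusted p = 1.9e-07) and 0.30 ± 0.04 in HMC-1.1 (adjusted p = 1.7e-05), and 0.21, 0.32 and 0.21 with the effective length as an offset, all past the test. The 20 genes nearest to NDUFC2 had medians of 0.06, 0.16 and 0.07 in the same order. Of these neighbours, 6 were higher and 0 lower in clone 1, 8 and 2 in clone 2, and 4 and 1 in HMC-1.1. NDUFA11 rose likewise, by 0.23 ± 0.06 in clone 1 (adjusted p = 0.0041), 0.17 ± 0.06 in clone 2 (adjusted p = 0.032) and 0.20 ± 0.06 in HMC-1.1 (adjusted p = 0.012), though the call in clone 2 was lost without any of 4 libraries (HMC-1.2 replicates 1 and 3, clone 2 replicates 1 and 2; lowest value 0.14) and that in HMC-1.1 without HMC-1.1 replicate 3 or HMC-1.2 replicate 1 (lowest value 0.15).
NDUFS5 (chromosome 1, 39026318 to 39034636) was low in clone 1 alone, with CPM of 97.3, 98.7 and 91.7 in HMC-1.2, 89.8, 82.1 and 97.3 in HMC-1.1, 68.6, 71.9 and 67.6 in clone 1 and 106, 101 and 93.4 in clone 2. The clone 1 libraries lay below all others. The log2 fold change of clone 1 was -0.47 ± 0.06 against HMC-1.2 (adjusted p = 2e-06), -0.53 ± 0.06 against clone 2 (adjusted p = 7.8e-07) and -0.37 ± 0.06 against HMC-1.1 (adjusted p = 0.00029), and each held with any 1 library left out. NDUFA8, a subunit on the intermembrane side, was lower in clone 1 by -0.21 ± 0.05 (adjusted p = 0.00088) and higher in clone 2 by 0.13 ± 0.05 (adjusted p = 0.029), the latter lost without HMC-1.2 replicate 2 or 3 or clone 2 replicate 1 or 2 (lowest value 0.10). NDUFA1, a single-pass membrane subunit, was lower in clone 1 by -0.23 ± 0.06 (adjusted p = 0.0034) and in HMC-1.1 by -0.21 ± 0.06 (adjusted p = 0.0078), where it came to -0.12 without HMC-1.1 replicate 2. NDUFA13 was lower in clone 2 by -0.18 ± 0.05 (adjusted p = 0.0032).

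Of the 12 accessory genes of the distal membrane arm, 0 were higher and 5 lower in clone 1, 0 higher and 6 lower in HMC-1.1, and 1 higher and 1 lower in clone 2. Over all genes tested, 30.1% were higher and 29.3% lower in clone 1, 27.2% and 26.5% in HMC-1.1, and 24.7% and 23.9% in clone 2. With the offset 5 were lower in clone 1, but only NDUFB3 and NDUFB4 in HMC-1.1, beside 52.2% and 45.2% of all genes in either direction. In HMC-1.1 NDUFAB1 (-0.11 ± 0.06, adjusted p = 0.11), NDUFB2 (-0.07 ± 0.07, adjusted p = 0.43), NDUFB7 (-0.12 ± 0.07, adjusted p = 0.22) and NDUFB10 (-0.07 ± 0.05, adjusted p = 0.32) did not pass with the offset. NDUFB3 (chromosome 2, 201071433 to 201085750) had CPM of 42.7, 38.8 and 39.1 in HMC-1.2, 29.9, 27.2 and 32.4 in HMC-1.1, 25.6, 27.1 and 24 in clone 1 and 40.1, 36.3 and 31.4 in clone 2. The HMC-1.1 and clone 1 libraries lay below all HMC-1.2 libraries, and clone 2 overlapped with HMC-1.2 and HMC-1.1. The log2 fold change was -0.65 ± 0.08 in clone 1 (adjusted p = 2.3e-06), -0.43 ± 0.08 in HMC-1.1 (adjusted p = 0.00021) and -0.17 ± 0.08 in clone 2 (adjusted p = 0.094), and -0.59, -0.34 and -0.09 with the effective length as an offset. Its 20 nearest genes had medians of -0.04, -0.02 and 0.04.
NDUFB4 (chromosome 3, 120596328 to 120602507) had 103 CPM in each of the 3 HMC-1.2 libraries, 88.7, 86.8 and 92.8 in HMC-1.1, 80.7, 85.7 and 75.8 in clone 1 and 102, 100 and 98.5 in clone 2. Clone 1 and HMC-1.1 lay below HMC-1.2 and clone 2. Compared with HMC-1.2, NDUFB4 had a log2 fold change of -0.35 ± 0.04 in clone 1 (adjusted p = 1.2e-06), -0.21 ± 0.04 in HMC-1.1 (adjusted p = 0.00043) and -0.04 ± 0.04 in clone 2 (adjusted p = 0.45). NDUFAB1, the acyl carrier protein that also serves mitochondrial fatty acid synthesis, was lower in clone 1 by -0.27 ± 0.05 (adjusted p = 0.00027) and in HMC-1.1 by -0.16 ± 0.05 (adjusted p = 0.017, lost without HMC-1.1 replicate 2 or HMC-1.2 replicate 1 or 2, up to -0.11), and its 20 nearest genes had a median of -0.20 in clone 1. NDUFB2, which shares its strand and part of its bases with ADCK2 (86.7% of the CPM of NDUFB2), was lower in clone 1 by -0.24 ± 0.06 (adjusted p = 0.0029) and in HMC-1.1 by -0.15 ± 0.06 (adjusted p = 0.046), and NDUFB7 in HMC-1.1 by -0.19 ± 0.07 (adjusted p = 0.037), both of the latter lost without HMC-1.1 replicate 2 or HMC-1.2 replicate 2 and without a further library each, HMC-1.2 replicate 1 and HMC-1.1 replicate 3 (up to -0.09 and -0.13). In clone 2, NDUFB8 was higher by 0.13 ± 0.05 (adjusted p = 0.028, lost without 4 of 6 libraries, down to 0.11) and NDUFB1 lower by -0.20 ± 0.07 (adjusted p = 0.032, lost without 5 of 6 libraries, up to -0.15), the latter also with the effective length as an offset (-0.09 ± 0.08, adjusted p = 0.38).

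**Figure D4:**
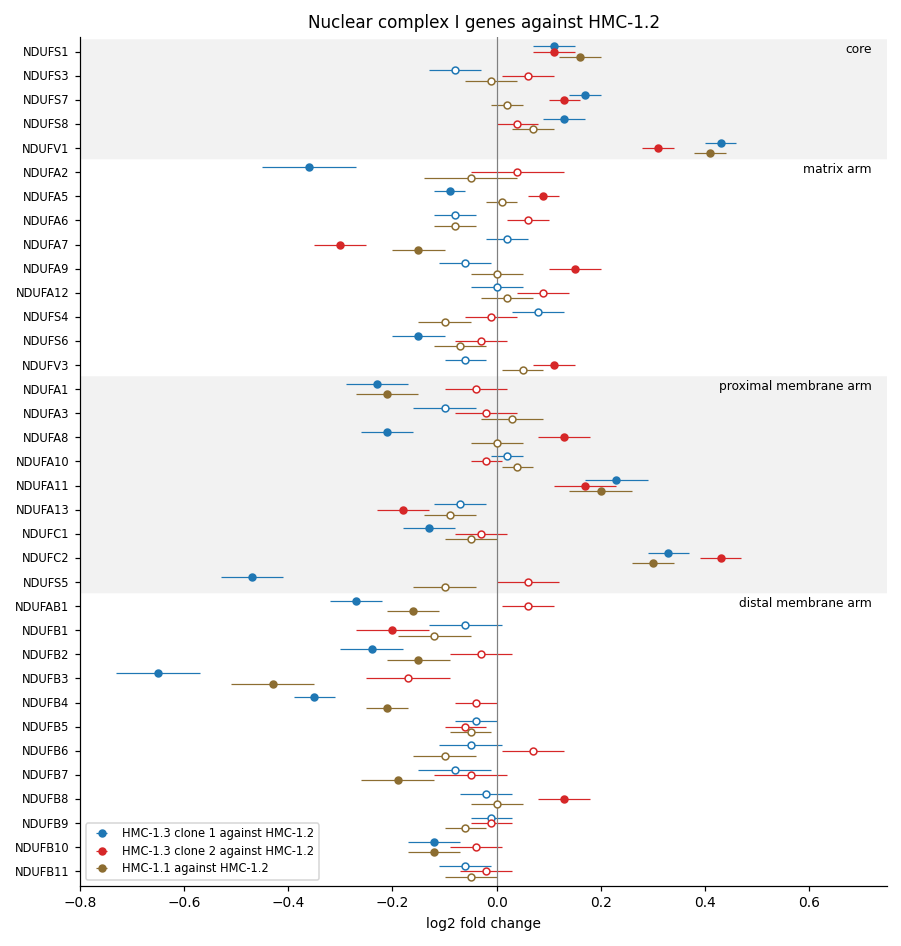
Log2 fold change against HMC-1.2 (x axis) with its SE for the 35 nuclear complex I genes, grouped by place in the complex, in HMC-1.3 clone 1, HMC-1.3 clone 2 and HMC-1.1, with filled circles past the test and open circles not. NDUFV1, NDUFC2 and NDUFA11 lay to the right in all 3 comparisons, and NDUFB3 in clone 1 lay farthest to the left, at -0.65.

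**Figure D5:**
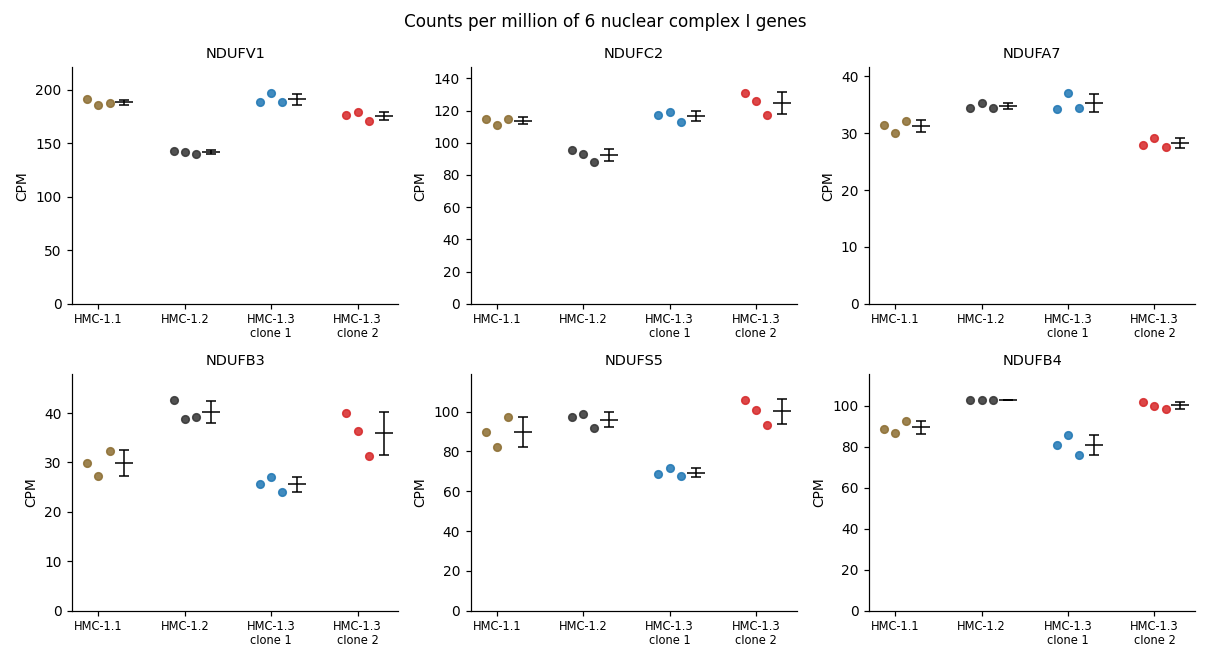
CPM (y axes from 0) of 6 nuclear complex I genes, with 1 point per library and the mean with its SD for each group. NDUFV1 and NDUFC2 were lowest in HMC-1.2, NDUFA7 was lowest in clone 2, and NDUFB3, NDUFS5 and NDUFB4 were lowest in clone 1.

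Over both clones, 5 nuclear genes were higher than in HMC-1.2 in both (NDUFV1, NDUFC2, NDUFA11, NDUFS1 and NDUFS7), 0 were lower in both, and 2, NDUFA5 and NDUFA8, were lower in clone 1 and higher in clone 2. Of all genes tested, 17.2% were higher in both clones, 15.9% lower in both and 2.03% lower in clone 1 and higher in clone 2. The clones share the HMC-1.2 libraries in this count. NDUFA5 moved little, by -0.09 ± 0.03 (adjusted p = 0.03) and 0.09 ± 0.03 (adjusted p = 0.033), each lost without 4 of 6 libraries, with sizes down to 0.08 and 0.07, and the first also with the offset (-0.06 ± 0.04, adjusted p = 0.21). Of the mitochondrial genes, MT-CO1 and MT-ND6 were higher in both clones. Of all members, 6 of the 35 nuclear genes (NDUFA3, NDUFA10, NDUFA12, NDUFB5, NDUFB9 and NDUFB11) and 2 of the 13 mitochondrial genes (MT-ND5 and MT-CO2) passed in none of the 6 comparisons.

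The promoters of the nuclear genes were read on both strands for the palindromic motif of the nuclear respiratory factor NRF1, a regulator of many respiratory genes, in its exact form and in a looser form with any base at the sixth place, and for the ETS-like motif CCGGAAG. Promoter sequences from RefSeq (GRCh38.p14, 250 bases before to 50 after the start) were at hand for 31 of the 35 genes. The exact NRF1 motif was found in 2 of them (6.45%, beside 1.52% of 27305 promoters), the looser one in 6 (19.4%, beside 6.98%) and the ETS-like motif in 5 (16.1%, beside 12.2%). Both genes with the exact motif, NDUFB4 and NDUFA8, were lower in clone 1, as were 12 of the 35 nuclear members and 29.3% of all genes. In clone 2 NDUFA8 was higher and NDUFB4 did not pass. NDUFB3 and NDUFV1, which had the largest fall and the largest rise among the nuclear members in clone 1, held neither motif in this window. The 3 promoters printed here are those of genes that were lower in clone 1, with capitals for the looser NRF1 motif, which occurs 3 times in NDUFB4 and 2 times, overlapping, in NDUFA8.
NDUFB4, chr3:120596086-120596385, plus strand: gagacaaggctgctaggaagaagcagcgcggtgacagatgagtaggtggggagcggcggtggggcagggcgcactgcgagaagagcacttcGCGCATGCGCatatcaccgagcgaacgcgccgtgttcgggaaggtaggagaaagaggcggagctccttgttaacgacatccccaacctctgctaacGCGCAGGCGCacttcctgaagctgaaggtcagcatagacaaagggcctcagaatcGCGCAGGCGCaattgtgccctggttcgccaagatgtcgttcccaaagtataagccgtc
NDUFA8, chr9:122159730-122160029, minus strand: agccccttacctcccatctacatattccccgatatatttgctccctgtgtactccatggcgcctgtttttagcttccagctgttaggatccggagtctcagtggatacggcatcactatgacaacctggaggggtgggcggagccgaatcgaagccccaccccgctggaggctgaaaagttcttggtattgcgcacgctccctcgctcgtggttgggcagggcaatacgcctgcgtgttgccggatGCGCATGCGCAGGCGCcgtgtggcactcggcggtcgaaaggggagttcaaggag
NDUFB3, chr2:201071751-201072050, plus strand: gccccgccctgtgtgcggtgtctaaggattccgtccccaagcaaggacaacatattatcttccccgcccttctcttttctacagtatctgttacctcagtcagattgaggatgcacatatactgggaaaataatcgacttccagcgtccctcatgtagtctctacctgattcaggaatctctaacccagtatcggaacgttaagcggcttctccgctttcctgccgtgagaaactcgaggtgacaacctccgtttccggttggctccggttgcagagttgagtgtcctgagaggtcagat
The looser motif was also found in NDUFA3, NDUFA9, NDUFA11 and NDUFA12, of which NDUFA11 was higher in clone 1 and the other 3 did not pass there, so that the genes with the motif did not move one way.

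Other nuclear genes of respiration were counted beside the members, to be read against the shares over all genes (30.1% higher and 29.3% lower in clone 1, 24.7% and 23.9% in clone 2, 27.2% and 26.5% in HMC-1.1). Of 16 complex I assembly factors, 6 were higher and 4 lower in clone 1, 5 and 1 in clone 2, and 5 and 3 in HMC-1.1 (62.5%, 37.5% and 50% in either direction, beside 59.4%, 48.5% and 53.7% of all genes). NDUFAF6 rose by 0.28 ± 0.06, 0.42 ± 0.06 and 0.39 ± 0.06 in clone 1, clone 2 and HMC-1.1, and NDUFAF8 fell by 0.37, 0.19 and 0.40 on the log2 scale. Of 9 nuclear complex III genes, 1 was higher and 5 lower in clone 1, 2 and 3 in clone 2, and 1 and 4 in HMC-1.1, which made 66.7%, 55.6% and 55.6% in either direction. The core subunit UQCRC2 rose by 0.80 ± 0.04, 0.92 ± 0.04 and 0.98 ± 0.04, more than any of the 48 members.
Of 11 nuclear complex IV genes, 1 was higher and 4 lower in clone 1, 1 and 1 in clone 2, and 1 and 3 in HMC-1.1 (45.5%, 18.2% and 36.4%). Of 17 complex V genes, 2 were higher and 9 lower in clone 1 and in HMC-1.1, and 3 and 1 in clone 2 (64.7% in clone 1 and HMC-1.1, 23.5% in clone 2). ATP5MC1, a gene of the proton-carrying ring, was -0.58 ± 0.05 in clone 1 (adjusted p = 4.9e-08), -0.26 ± 0.05 in HMC-1.1 (adjusted p = 0.00039) and -0.05 ± 0.05 in clone 2 (adjusted p = 0.42), a pattern like that of NDUFB3 and NDUFB4. Of 4 complex II genes, all encoded in the nucleus, SDHA was higher by 0.10, 0.19 and 0.19 and SDHB lower by -0.13, -0.11 and -0.19.

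The genes that act on the mitochondrial genome changed in both directions. Of 16 genes of mitochondrial DNA upkeep and transcription, 6 were higher and 4 lower in clone 1, 7 and 2 in clone 2, and 5 and 2 in HMC-1.1 (62.5%, 56.2% and 43.8% in either direction, beside 59.4%, 48.5% and 53.7% of all genes). TFAM, which packs the mitochondrial DNA and starts its transcription, was higher by 0.15 ± 0.04 (adjusted p = 0.0028), 0.19 ± 0.04 (adjusted p = 0.00033) and 0.21 ± 0.04 (adjusted p = 0.00015) in clone 1, clone 2 and HMC-1.1, whereas the mitochondrial RNA polymerase POLRMT was higher in clone 2 by 0.17 ± 0.04 (adjusted p = 0.0012), with -0.08 ± 0.04 in clone 1 and -0.01 ± 0.04 in HMC-1.1.
Of 20 genes of mitochondrial RNA processing and stability, 5 were higher and 10 lower in clone 1, 11 and 0 in clone 2, and 4 and 7 in HMC-1.1 (75%, 55% and 55% in either direction), where 24.7% of all genes were higher and 23.9% lower in clone 2. PTCD2, a protein that takes part in the maturation of the cytochrome b message, rose by 0.67 ± 0.06, 0.46 ± 0.06 and 0.53 ± 0.06, and PNPT1, a mitochondrial ribonuclease, was -0.37 ± 0.04 in clone 1 and -0.27 ± 0.04 in HMC-1.1 with 0.00 ± 0.04 in clone 2. Of 10 regulators of mitochondrial biogenesis 9 could be tested, of which 1 was higher and 3 lower in clone 1, 2 and 2 in clone 2, and 2 and 1 in HMC-1.1 (44.4%, 44.4% and 33.3%). PPARGC1A was too low to test, and ESRRA fell by 0.16, 0.18 and 0.20.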

How the data were processed

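RNA from 12 cultures was sequenced from stranded libraries after oligo-dT capture. The authors deposited expected counts, estimated for each gene by RSEM without normalization. The submitters' processing notes name cutadapt 2.10, STAR 2.5.3, Picard, RSEM 1.3.0 and DESeq2, and the build is hg38. The FPKM that the authors deposited are scaled by RSEM for effective length and library size. The strand setting of the counting is not given in the sources used here. The annotation named is Gencode Release 39, and 98.9% of identifiers have a gene in Gencode 44 (58.9% of these in the same version), from which positions were taken on GRCh38 by the identifier without its version.

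Counts (7.39% not whole) were rounded. Groups were compared in edgeR 4.0.16 (R 4.3.3) by its quasi-likelihood test, after filterByExpr (15944 genes kept) and TMM (factors 0.974 to 1.02), with the 4 groups as the only term, with Benjamini-Hochberg adjustment over all genes and an adjusted p under 0.05 as the threshold. CPM are counts scaled to the TMM-normalised library totals. Every replicate pair differed by more than counting noise (chi-square per degree of freedom 2.85 to 7.91). On simulated data for HMC-1.3 clone 1 against HMC-1.2 (15944 genes), edgeR recovered 64 of 100 genes changed 1.5-fold and 82 of 100 changed 2-fold with 8 false calls.

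Alternatives were DESeq2 1.42.0, limma 3.58.1 on log2(FPKM + 1) and log2(FPKM + 0.1), no filter, a filter of 0.5 CPM, glmTreat against 1.5-fold, other scalings, only the groups compared, a replicate block, a term for resent libraries and each library left out. Pseudogene counts added, a scale of the mitochondrial sum, and the effective length (counts over FPKM) as an offset were chosen after seeing the data. All mitochondrial members were named. Of the nuclear members, the 6 largest rises and 6 largest falls past the test in each comparison with HMC-1.2 and between the clones were named, with any over 1.5-fold, and of the other lists at most 3 genes with the largest mean change, with TFAM, POLRMT and PPARGC1A by name. NDUFA5 and, beside the values of the clones, NDUFA6 and NDUFS3 were named after their values were seen. The members and lists were chosen with earlier results of these data known.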

Additional observations from a re-analysis of the deposited data

Results flagged for a closer look

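In 21 of the 48 genes the difference from HMC-1.2 was not the same in the 2 HMC-1.3 clones, by edgeR's quasi-likelihood test of clone 1 against clone 2, where 50.2% of all genes passed. The values below are log2 differences, clone 1 minus clone 2. Of the mitochondrial genes these were MT-ND2 (-0.29), MT-ND3 (-0.21), MT-CYB (-0.26) and MT-CO1 (0.20). MT-ND2 and MT-ND3 lost the call without clone 1 replicate 1 or 3 or clone 2 replicate 1, with values up to -0.17 and -0.12. The libraries of all 4 overlapped between the clones, and DESeq2 called 0 of the 13 genes, with 2 at an unadjusted p under 0.05.

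Of the nuclear genes, NDUFS5 (-0.53), NDUFB3 (-0.49), NDUFA2 (-0.40), NDUFA8 (-0.35), NDUFAB1 (-0.33) and NDUFB4 (-0.31) were lower in clone 1 by the most, followed by NDUFA9 (-0.21), NDUFB2 (-0.20), NDUFA1 (-0.19), NDUFA5 (-0.18), NDUFV3 (-0.17), NDUFB8 (-0.15), NDUFA6 (-0.14) and NDUFS3 (-0.14). NDUFA7 (0.32), NDUFV1 (0.12) and NDUFA13 (0.11) were higher in clone 1. Each clone is 1 line, and what sets the clones apart was not tested.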

How the results depend on the processing

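Over the 6 comparisons 109 pairs of a gene and a comparison passed the test, 27 mitochondrial and 82 nuclear, and 10 and 40 of them passed with each library of the comparison left out. DESeq2 kept 88, limma on FPKM 77 at either pseudocount, no TMM 94, the term for resent libraries 94 and the effective-length offset 77. The precision rests on 3 libraries per group.

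No member passed glmTreat (edgeR) against a 1.5-fold change in any comparison, with 0 also at an unadjusted p under 0.05. Without a filter on low counts, the number of mitochondrial genes called was 11 in clone 1 against HMC-1.2, 9 in clone 2 against HMC-1.2, 9 in HMC-1.1 relative to HMC-1.2, 9 in clone 1 against HMC-1.1 and 11 in clone 1 against clone 2, beside 58.5%, 47.5%, 52.4%, 19.7% and 49.3% of the 15944 genes of the filtered fit. DESeq2 called 1 in clone 2 against HMC-1.2, 0 in clone 1 against HMC-1.1 (2 at an unadjusted p under 0.05) and 0 in clone 1 against clone 2 (2 likewise). Limma on FPKM called 3 in clone 2 against HMC-1.2, 3 in HMC-1.1 relative to HMC-1.2, 0 in clone 1 against HMC-1.1 (also 0 at an unadjusted p under 0.05), 3 in clone 2 against HMC-1.1 and 1 in clone 1 against clone 2, and 9 nuclear genes in clone 2 against HMC-1.1. The term for resent libraries left 0 mitochondrial genes in clone 1 against HMC-1.1 (2 at an unadjusted p under 0.05). With the effective length as an offset, the mitochondrial number was 3 in HMC-1.1 relative to HMC-1.2 and 0 in clone 1 against HMC-1.1 (also 0 at an unadjusted p under 0.05), the nuclear number was 6, 5 and 7 in HMC-1.1 relative to HMC-1.2, clone 1 against HMC-1.1 and clone 2 against HMC-1.1, and 0 passed relative to the mitochondrial sum in clone 2 against HMC-1.2. MT-ATP8 in clone 2 against HMC-1.2 turned from -0.36 to 0.15 with limma on FPKM and to 0.13 with the offset, both of which divide the counts by the effective length. For the other settings the cause was not tested.

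With 1 library left out at a time, the mitochondrial and nuclear numbers ranged from 3 to 4 and from 7 to 10 in clone 2 against HMC-1.2, from 4 to 7 and 7 to 13 in HMC-1.1 relative to HMC-1.2, from 0 to 3 and 5 to 7 in clone 1 against HMC-1.1, from 2 to 7 and 4 to 14 in clone 2 against HMC-1.1, and from 1 to 5 and 13 to 19 in clone 1 against clone 2. Relative to the mitochondrial sum they ranged from 2 to 4 in clone 1 and 2 to 5 in HMC-1.1, both against HMC-1.2. The mitochondrial number was 3 without HMC-1.2 replicate 1 or 2 or clone 2 replicate 1 (clone 2 against HMC-1.2), 0 without HMC-1.1 replicate 1 or 2 or clone 1 replicate 2 and 1 without clone 1 replicate 3 (clone 1 against HMC-1.1), 3 without HMC-1.1 replicate 1 and 2 without clone 2 replicate 1 (clone 2 against HMC-1.1) and 1 without clone 1 replicate 1 or 3 (between the clones). The nuclear number was 7 without HMC-1.2 replicate 2 or 3 or clone 2 replicate 2 (clone 2 against HMC-1.2), 7 without HMC-1.1 replicate 2 (HMC-1.1 against HMC-1.2) and 5 without HMC-1.1 replicate 3 or clone 1 replicate 1 or 3 (clone 1 against HMC-1.1).

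As a percent of summed FPKM the mitochondrial share was 4.29, 4.34, 4.51 and 4.82 and the nuclear share 0.646, 0.633, 0.621 and 0.67 in HMC-1.1, HMC-1.2, clone 1 and clone 2. Replicate numbers were used as a replicate block in an alternative. Correlations of same-numbered libraries ran from -0.0433 to 0.0964. The highest correlation with a library of another number ran from -0.0467 to 0.082. Whether same-numbered libraries share more than a number cannot be told from such small values. The block kept 108 of the 109 calls and left 3 genes in clone 1 against HMC-1.2 relative to the mitochondrial sum.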
